A study of Mus musculus with 6 samples.

Results

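Dual-light cells are B cells in which 1 productive heavy chain was read together with 2 different productive light chains, and 497 of 6446 WT B cells with a productive receptor chain were of this kind. They were chosen as barcodes called a cell in the B cell receptor table but not in the T cell receptor table of the same mouse. Among their high-confidence, productive contigs of at least 2 unique molecular identifiers (UMIs, each marking 1 captured transcript), they had exactly 1 heavy and exactly 2 light chain CDR3 nucleotide sequences. CDR3 is the stretch across the joint of the V and J segments, and 2 different sequences there mark 2 different rearrangements. By the same filters, 3874 WT cells had 1 heavy and 1 light chain (single-light cells below), and 210 had 2 heavy and 2 light chains. The series holds single-cell receptor libraries made from spleens of 2 mice, a wild-type C57BL/6JRj animal (WT) and a heterozygote of the 564Igi line, which carries knocked-in immunoglobulin heavy (Igh) and kappa (Igk) genes. Erythroid cells were removed by their Ter-119 marker before droplet capture, and sex and age were not given in the sources used here. All values below are from the WT mouse unless the 564Igi mouse is named.

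With 1 mouse there are no replicates. Shares therefore carry exact (Clopper-Pearson) 95% intervals over cells, differences in percentage points carry Newcombe intervals built from them, and medians carry intervals from the ranks of the cells. All of these cover counting error only, no p-value was computed, and cells of 1 spleen are not replicates of a condition.

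A B cell normally displays 1 heavy and 1 light chain, because rearrangement stops once a working receptor is made. This limit is called allelic exclusion between both copies of a locus and isotypic exclusion between kappa and lambda. The kappa locus can rearrange again by joining another V gene to a J gene further downstream, which makes IGKJ5 the last J gene in reach, and lambda genes mostly rearrange after kappa. Receptor editing uses these steps to replace the light chain of a cell that binds self, and cells that keep both light chains are known from normal mice.

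The light chain CDR3s of 4 dual-light cells show what was read. They are the kappa-kappa and kappa-lambda pairs with the highest UMI counts of the weaker chain, meaning the chain with fewer UMIs. Sequences run 5′ to 3′, and capitals mark the 3′ bases that match the commonest CDR3 end of that J gene in single-light cells.
Cell 1, IGKV1-117 with IGKJ1, 127 UMIs: tgctttcaaggttcacatgttccGACGTTC
Cell 1, IGKV14-100 with IGKJ2, 125 UMIs: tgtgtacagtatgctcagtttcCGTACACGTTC
Cell 2, IGKV1-135 with IGKJ1, 118 UMIs: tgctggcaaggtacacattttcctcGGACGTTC
Cell 2, IGKV8-27 with IGKJ1, 105 UMIs: tgtcatcaatacctctcctcgcGGACGTTC
Cell 3, IGLV1 with IGLJ1, 296 UMIs: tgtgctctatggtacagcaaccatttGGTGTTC
Cell 3, IGKV5-45 with IGKJ4, 93 UMIs: tgtcaacagagtaacagctggccCACGTTC
Cell 4, IGKV17-121 with IGKJ4, 115 UMIs: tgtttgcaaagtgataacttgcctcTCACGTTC
Cell 4, IGLV2 with IGLJ2, 87 UMIs: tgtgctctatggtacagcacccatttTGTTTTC
Cell 1 split its light chain UMIs almost evenly, with 49.6% on the weaker chain. Both chains of cell 2 used IGKJ1, so the cell holds 2 rearrangements that end at the same J gene. In cell 3 the lambda chain was the stronger one and in cell 4 the kappa chain was. The heavy chain of each of these 4 cells was IGHM.

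The kappa chains come from chromosome 6 and the lambda chains from chromosome 16. In the RefSeq table of GRCm38.p6, the assembly behind the mm10 build, the kappa J genes lie in the order Igkj1 (chr6:70722562-70722599), Igkj2 (chr6:70722916-70722954), Igkj3 (chr6:70723223-70723260), Igkj4 (chr6:70723548-70723585) and Igkj5 (chr6:70723886-70723923). The kappa constant exon Igkc follows at chr6:70726435-70726754. A lambda V gene lies at chr16:19085017-19085460 (Iglv1), and others at chr16:19260403-19260844 (Iglv2) and chr16:19241208-19241679 (Iglv3).

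A further sequence has to be set beside the results, because it was the most frequent light chain outside B cells.
Chain of T cell barcodes, IGKV8-24 with IGKJ5: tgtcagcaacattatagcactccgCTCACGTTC
Of 3263 barcodes called only as T cells, 45 (1.38%, 1.01 to 1.84) had a productive light chain under the same filters, and 40 of those 45 held this one, at 2 to 9 UMIs with a median of 5. It also made up 45.6% (43.5 to 47.8) of 2148 productive light contigs in barcodes called as no cell, at up to 12 UMIs. Its highest count was 11099 UMIs in 1 cell, and the next highest was 104. It was the weaker chain in 26 of 497 dual-light cells (5.23%, 3.45 to 7.57), at a median of 7 UMIs, and 10 of these 26 exceeded the 9 UMIs seen in T cell barcodes. In 32 of 3874 single-light cells (0.826%, 0.566 to 1.16) it was the light chain, at a median of 34 UMIs. The same held for 148 of 1457 cells with 1 light chain and no heavy chain read (10.2%, 8.65 to 11.8), at a median of 13 UMIs. It was the stronger chain in 2 kappa-kappa cells as well. The main results that it touches are therefore also given with every cell that holds it left out of both groups, which removes 28 dual-light and 32 single-light cells. How much of it was made in the dual-light cells themselves was not tested.

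The WT B cell library held 927382 UMIs in 24740982 reads and the WT T cell library 86409 UMIs in 30190690 reads. A productive T cell receptor contig was read in 1 of 497 dual-light cells (0.201%, 0.00509 to 1.12) and 3 of 3874 single-light cells (0.0774%, 0.0160 to 0.226). Another 345 WT barcodes called in both tables were left out. Of the called B cell barcodes, 38 occurred in both mice, and 2 of these were dual-light cells.

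Dual-light cells made up 11.2% (10.3 to 12.2) of the 4424 cells with 1 heavy and at least 1 light chain. Another 53 of those cells (1.20%, 0.899 to 1.56) had 3 or more light chains. Without the cells that held the chain of T cell barcodes the dual-light share was 10.8% (9.85 to 11.7). A weaker CDR3 found in no other WT B cell was present in 49 cells (1.11%, 0.820 to 1.46), because most light CDR3s recur between cells. In the 564Igi mouse, 152 of 3206 cells were dual-light (4.74%, 4.03 to 5.53).

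Most pairs were kappa with kappa. Kappa-kappa pairs numbered 400 (80.5%, 76.7 to 83.9), kappa-lambda pairs 92 (18.5%, 15.2 to 22.2) and lambda-lambda pairs 5 (1.01%, 0.327 to 2.33). Lambda was the light chain of 8.26% (7.41 to 9.17) of single-light cells, and multiplying the single-light shares gives 84.2% kappa-kappa, 15.2% kappa-lambda and 0.682% lambda-lambda. The kappa-kappa product lies just above its observed interval, the kappa-lambda product just below its own, and the lambda-lambda product inside. Without the cells that held the chain of T cell barcodes, kappa-lambda pairs made up 18.1% (14.7 to 21.9), and that interval includes the product of 15.3% from the single-light cells that remain. The high-confidence flag, described with the UMI balance, removes weak second chains from kappa-kappa but not from kappa-lambda pairs. With the weaker chain at 20% or more of the stronger in every pair, kappa-lambda pairs made up 73 of 478 (15.3%, 12.2 to 18.8), and with unflagged contigs counted as well 15.3% (12.4 to 18.7). Both intervals include the product. Of the 5 lambda-lambda cells, 3 joined IGLV1 with IGLV3 and the other 2 held IGLV1 in both chains.

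Kappa-lambda pairs were also counted in cells with 2 heavy and 2 light chains. There they made up 22 of 210 pairs (10.5%, 6.68 to 15.4), and dual-light cells lay 8.03 points (2.07 to 13.3) above that. With the weaker chain at 20% or more of the stronger in both groups the difference was 5.66 points, and its interval (-0.0977 to 10.7) includes 0. Among 157 cells with 2 light chains and no heavy chain read, 18 pairs were kappa-lambda (11.5%, 6.94 to 17.5). In the 564Igi mouse 37 of 152 pairs were (24.3%, 17.8 to 32.0), an interval that overlaps that of the WT mouse.

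Light chain depth moved with the number of light chains, whereas heavy chain depth did not. Dual-light cells had a median of 79 light chain UMIs (75 to 82) and single-light cells 45 (43 to 46), both chains of a dual-light cell summed. The heavy chain had a median of 15 UMIs (14 to 16) in dual-light cells and 14 (14 to 14) in single-light cells. The heavy chain thus stood at 19.4% (18.2 to 20.3) of the light chain UMIs in dual-light cells and at 32.6% (31.7 to 33.3) in single-light cells. The stronger of the dual-light chains alone had a median of 51 UMIs (49 to 54), and the weaker chain 26 (24 to 28). The stronger chain is by definition the larger count of its cell, which raises its median. Its 51 UMIs against the 45 of single-light cells therefore cannot show whether a chain of a dual-light cell had more UMIs.

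The share of dual-light cells was also taken within depth classes. Over cells with 2 to 9, 10 to 14, 15 to 24 and at least 25 heavy chain UMIs it was 10.8%, 10.8%, 11.2% and 12.3%, and all 4 intervals overlapped. Over light chain UMIs it was 2.47% (1.32 to 4.19) at 2 to 19 UMIs and 31.3% (25.9 to 37.0) at 120 or more, and each class in between lay higher than the one below it. A second chain adds its own UMIs to that count, so the light chain classes are not independent of the number of chains.

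**Figure D1:**
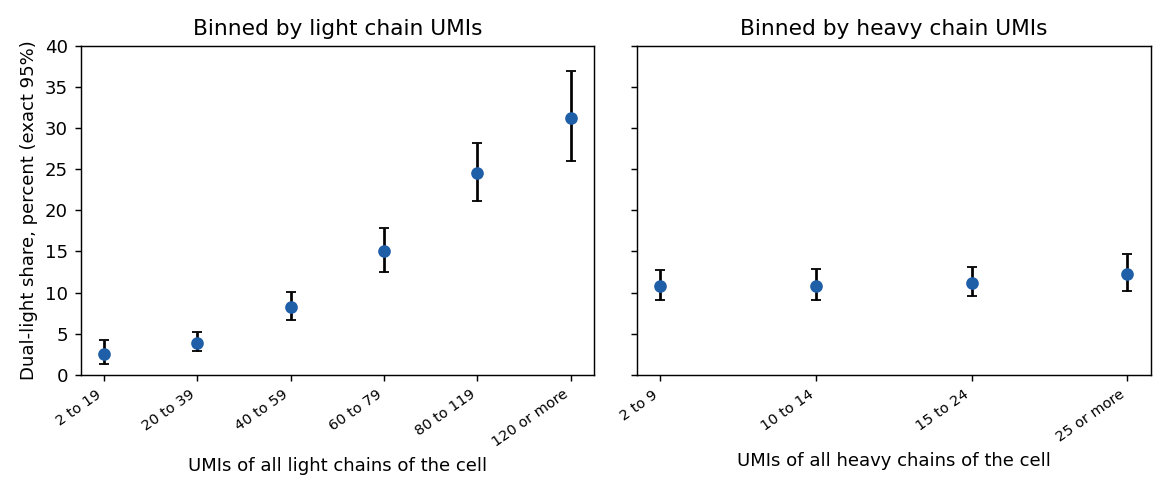
Share of dual-light cells among WT cells with 1 heavy and at least 1 light chain, in percent, by summed light chain UMIs (left) and by heavy chain UMIs (right). Points are shares and bars exact 95% intervals. The share lies between 2.47% and 31.3% over light chain classes and between 10.8% and 12.3% over heavy chain classes.

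Cells with 2 light chains also had more than 1 heavy chain more often. Among all cells with 2 light chains, 214 of 868 (24.7%, 21.8 to 27.7) had 2 or more heavy chains, against 67 of 5398 (1.24%, 0.963 to 1.57) with 1 light chain. No heavy chain was read in 18.1% (15.6 to 20.8) of cells with 2 light chains and in 27.0% (25.8 to 28.2) of cells with 1 light chain. The dual-light cells themselves have 1 heavy chain by choice. Even so, a further productive heavy CDR3 at 1 UMI or without the high-confidence flag was read in 31 of 497 dual-light cells (6.24%, 4.28 to 8.74) and in 16 of 3874 single-light cells (0.413%, 0.236 to 0.670). The share was 6.25% in kappa-kappa and 6.52% in kappa-lambda cells. No doublet caller was run, and the part of droplets with 2 B cells in the dual-light class was not tested. Cells with 2 heavy and 2 light chains are given beside the results for that reason.

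The 2 chains of a kappa-kappa cell had unequal UMI counts in most cells. The weaker chain had a median of 35.5% (34.2 to 37.3) of the light chain UMIs in kappa-kappa cells and 29.2% (25.7 to 36.2) in kappa-lambda cells. In kappa-kappa cells the share ran between 16.7% and 50%, and in kappa-lambda cells between 2.35% and 50%. The lower end in kappa-kappa cells is set by the high-confidence flag. Among flagged contigs, 0 of 962 further kappa chains had under 20% of the UMIs of the first, while 237 of 247 unflagged ones did. The flag set no such limit between a kappa and a lambda chain.

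Within the range open to both types, the balance did not differ beyond its intervals. In 19 of 92 kappa-lambda cells (20.7%, 12.9 to 30.4) the weaker chain was under 20% of the stronger. The 0 of 400 kappa-kappa cells in that range is set by the flag and is not an observed rate. In the other 73 kappa-lambda cells the weaker chain had a median of 36.2% (29.8 to 38.6), close to the 35.5% of kappa-kappa cells. Near-even pairs, with at least 40% of UMIs on the weaker chain, made up 36.5% (31.8 to 41.4) of kappa-kappa cells and 34.2% (23.5 to 46.3) of these 73. That difference was 2.25 points (-10.7 to 14.0). Cells with 2 heavy and 2 light chains had medians of 34.8% (32.8 to 36.0) for kappa-kappa and 36.8% (29.6 to 43.3) for kappa-lambda pairs.

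**Figure D2:**
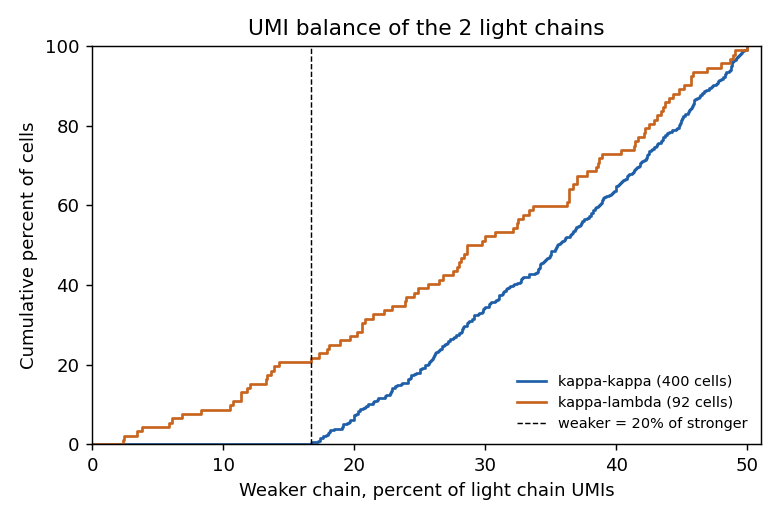
Cumulative percent of kappa-kappa (400) and kappa-lambda (92) cells by the percent of light chain UMIs on the weaker chain. The dashed line marks a weaker chain at 20% of the stronger. The kappa-kappa curve starts at 16.7%, whereas 19 kappa-lambda cells lie to the left of the line.

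Lambda was mostly the stronger chain of a kappa-lambda cell. It had more UMIs in 62 of 92 cells (67.4%, 56.8 to 76.8), kappa had more in 29 (31.5%, 22.2 to 42.0), and 1 cell was even. The lambda chain had a median of 54.5 UMIs (46 to 66) and the kappa chain 35 (26 to 39). In single-light cells lambda chains also had more UMIs, with a median of 56.5 (52 to 62) for lambda and 44 (42 to 45) for kappa. Where lambda was stronger, kappa had a median of 21 UMIs (16 to 34) and lambda 67.5 (57 to 77). Where kappa was stronger, kappa had 51 (41 to 71) and lambda 29 (21 to 44). Lambda was stronger in 15 of the 22 kappa-lambda cells with 2 heavy chains (68.2%, 45.1 to 86.1), and in 64.7% (53.6 to 74.8) of dual-light kappa-lambda cells without the chain of T cell barcodes. Weaker chains of 5 or fewer UMIs, up to the median of light chains in T cell barcodes, occurred in 13 kappa-kappa cells (3.25%, 1.74 to 5.49) and 10 kappa-lambda cells (10.9%, 5.34 to 19.1). Without the cells that hold the chain of T cell barcodes they occurred in 7 kappa-kappa and 6 kappa-lambda cells.

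**Figure D3:**
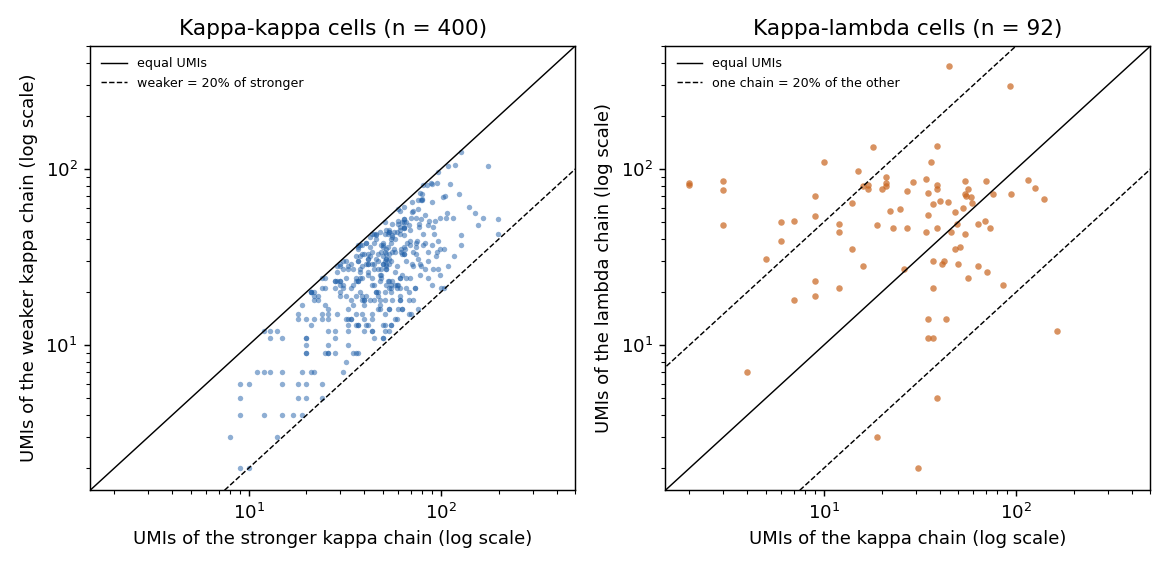
UMIs of the stronger (x) and weaker (y) kappa chain of 400 kappa-kappa cells, left, and of the kappa (x) and lambda (y) chain of 92 kappa-lambda cells, right, on log axes. Each point is a cell, solid lines mark equal UMIs and dashed lines a ratio of 20%. In the right panel 62 cells lie above the solid line and 29 below it.

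Kappa J use differed between the kappa chain of kappa-lambda cells and single-light kappa cells. The kappa chain of kappa-lambda cells joined IGKJ5 in 43 of 92 cells (46.7%, 36.3 to 57.4), against 815 of 3554 single-light kappa cells (22.9%, 21.6 to 24.4), a difference of 23.8 points (13.2 to 34.6). IGKJ1, the first kappa J gene, was used by 11 of 92 (11.96%, 6.12 to 20.4), against 31.0% (29.5 to 32.6), a difference of -19.1 points (-25.1 to -10.5). IGKJ2 and IGKJ4 differed by -4.56 points (-13.5 to 5.82) and -0.191 points (-6.69 to 8.70), with intervals that include 0. IGKJ4 and IGKJ5 together, the last kappa J genes, made up 60.9% (50.1 to 70.9) of these kappa chains and 37.3% (35.7 to 38.9) of single-light kappa chains. IGKJ3, which mouse B cells are not known to use, was found in 0 of 92 of these chains (which allows up to 3.26%), 0 of 800 kappa-kappa chains (up to 0.375%) and 0 of 3554 single-light kappa chains (up to 0.0844%).

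Of the 43 IGKJ5 chains, 7 were the chain of T cell barcodes, the weaker chain in each of the 7 cells. With the cells that hold it left out of both groups, IGKJ5 was used by 36 of 85 kappa chains (42.4%, 31.7 to 53.6), against 783 of 3522 single-light kappa chains (22.2%, 20.9 to 23.6), a difference of 20.1 points (9.38 to 31.4). The IGKJ5 share was 47.9% (36.1 to 59.96) in the 73 cells whose weaker chain was at least 20% of the stronger. In the 12 kappa-lambda cells whose weaker chain was found in no other WT B cell, IGKJ4 and IGKJ5 together lay 37.7 points (5.52 to 57.3) above single-light cells. IGKJ5 alone lay 27.1 points above them there, with an interval (-1.87 to 56.0) that includes 0. The IGKJ5 share was 50% (37.0 to 63.0) where kappa was the weaker chain (62 cells) and 37.9% (20.7 to 57.7) where it was the stronger (29 cells). By lambda gene it was 46.6% with IGLV1 (58 cells), 43.5% with IGLV2 (23) and 54.5% with IGLV3 (11), with intervals that overlap. In kappa-lambda cells with 2 heavy chains, IGKJ5 was used by 5 of 22 kappa chains (22.7%, 7.82 to 45.4). The difference from those cells was 24.0 points, and its interval (-0.939 to 42.4) includes 0. Kappa-lambda cells with no heavy chain read used IGKJ5 in 6 of 18 (33.3%, 13.3 to 59.0). Among the barcodes called in both tables, kappa-lambda pairs used it in 5 of 10 (50%, 18.7 to 81.3).

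**Figure D4:**
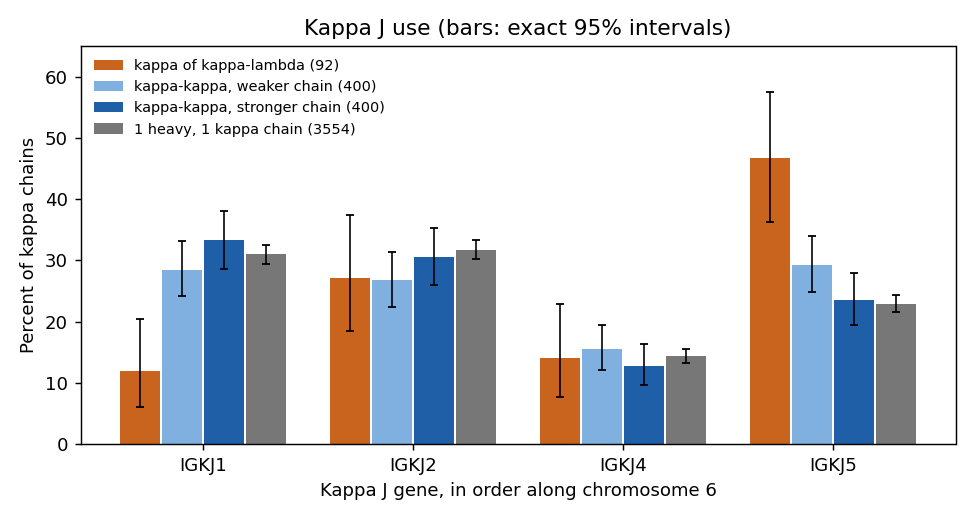
Percent of kappa chains with each J gene, in the kappa chain of kappa-lambda cells (92), the weaker and the stronger chain of kappa-kappa cells (400 each) and single-light kappa cells (3554). Error bars are exact 95% intervals. The IGKJ5 bar of kappa-lambda cells stands at 46.7%, against 22.9% in single-light cells, and their IGKJ1 bar at 11.96%, against 31.0%.

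In kappa-kappa cells J use lay close to that of single-light cells. Over both chains, IGKJ4 and IGKJ5 made up 324 of 800 (40.5%, 37.1 to 44.0), which is 3.25 points above single-light cells with an interval (-0.539 to 7.09) that includes 0. The stronger chain used them in 36.3% (31.5 to 41.2) and the weaker in 44.8% (39.8 to 49.8), differences of -1.0 points (-5.99 to 4.17) and 7.5 points (2.30 to 12.8). In 111 cells the weaker chain alone used IGKJ4 or IGKJ5, in 77 the stronger alone, in 68 both and in 144 neither. Of the weaker chains, 19 were the chain of T cell barcodes. With the cells that hold it left out of both groups, the weaker chain share was 159 of 379 (42.0%, 36.9 to 47.1), against 1292 of 3522 in single-light cells (36.7%, 35.1 to 38.3). That difference was 5.27 points, and its interval (-0.00517 to 10.7) just includes 0. In those 379 cells the weaker chain alone used IGKJ4 or IGKJ5 in 100 and the stronger alone in 76. With unflagged contigs counted as well, and the cells that hold the chain of T cell barcodes kept, the weaker chain difference was 13.3 points (8.32 to 18.3). In that setting IGKV8-24, the V gene of that chain, made up 7.17% of dual-light kappa chains, against 4.48% with the flag. How much of the 13.3 points that chain made up was not tested. The IGKJ5 share of weaker chains was 29.3% (24.8 to 34.0) with those cells and 25.6% (21.3 to 30.3) without them. Single-light chains with IGKJ5 also had somewhat fewer UMIs, with a median of 39 (37 to 42), against 46 (44 to 48) for IGKJ1. Whether that moves IGKJ5 chains into the weaker place was not tested. IGKJ5 was 17.5 points (5.99 to 29.1) more frequent in the kappa chain of kappa-lambda cells than in the weaker chain of kappa-kappa cells, and 16.8 points (5.11 to 28.8) more frequent without the cells that hold the chain of T cell barcodes.

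Both chains of a kappa-kappa cell used the same J gene in 132 of 400 cells (33%, 28.4 to 37.8). The product of single-light shares is 27.0%, below that interval. With unflagged contigs counted as well the share was 30.4% (26.2 to 34.9). Where the weaker chain was found in no other cell it was 29.7% (15.9 to 47.0). These intervals include 27.0%, whereas those of all other settings lay above it. In kappa-kappa cells with 2 heavy chains the same J gene was used in 43 of 188 (22.9%, 17.1 to 29.5), and dual-light cells lay 10.1 points (2.03 to 17.7) above that. IGKJ1 was in both chains of 43 cells, IGKJ2 of 43, IGKJ5 of 34 and IGKJ4 of 12. Where the J genes differed, the weaker chain had the more downstream one in 152 of 268 cells (56.7%, 50.6 to 62.7). Without the cells that hold the chain of T cell barcodes this was 139 of 254 (54.7%, 48.4 to 61.0), and in kappa-kappa cells with 2 heavy chains 74 of 145 (51.03%, 42.6 to 59.4). Both of those intervals include 50%.

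The lambda chains of kappa-lambda cells resembled those of single-light lambda cells. IGLV1 was used by 58 of 92 (63.0%, 52.3 to 72.9), against 192 of 320 (60%, 54.4 to 65.4), a difference of 3.04 points (-8.94 to 14.4). IGLV2 was used by 25% of kappa-lambda cells and 25.9% of single-light lambda cells, and IGLV3 by 11.96% of kappa-lambda cells and 14.1% of single-light lambda cells. The lambda J genes IGLJ1, IGLJ2 and IGLJ3 made up 57.6%, 37.0% and 5.43% of the lambda chains in kappa-lambda cells, against 51.9%, 40% and 8.13% in single-light lambda cells. Each of these differences has an interval that includes 0, and shifts within those intervals were not detectable at 92 cells.

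Kappa V use differed for few genes. Of 59 IGKV genes with at least 20 chains, 2 had intervals that did not overlap between dual-light and single-light cells, or 3.39% of those tested. IGKV8-24 (chr6:70216858-70217421) was higher, at 40 of 892 kappa chains of dual-light cells (4.48%, 3.22 to 6.06) and 76 of 3554 single-light kappa chains (2.14%, 1.69 to 2.67). It stood in the weaker place in 23 kappa-kappa cells, 19 of them with the chain of T cell barcodes, and in the stronger place in 5. With the cells that hold that chain left out of both groups, IGKV8-24 was used by 12 of 843 dual-light (1.42%, 0.738 to 2.47) and 44 of 3522 single-light kappa chains (1.25%, 0.909 to 1.67). The difference was then 0.174 points, with an interval (-0.632 to 1.28) that includes 0. IGKV3-4 (chr6:70671789-70672377) was lower, at 2 of 892 (0.224%, 0.0272 to 0.808) and 49 of 3554 (1.38%, 1.02 to 1.82). With a UMI minimum of 5, and in the 49 cells whose weaker chain was found in no other cell, its intervals were not apart. IGKV3-4 is a member of the IGKV3 family, which lies nearest to the J genes. The family as a whole made up 4.93% (3.61 to 6.57) of dual-light and 7.77% (6.91 to 8.70) of single-light kappa chains, a difference of -2.83 points (-4.45 to -0.988). The IGKV1 and IGKV2 families together made up 17.7% (15.3 to 20.4) of dual-light and 16.7% (15.5 to 18.0) of single-light kappa chains.

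The most used kappa V genes of dual-light cells were IGKV1-135, IGKV8-24, IGKV10-96, IGKV1-117 and IGKV12-46. IGKV1-135 (chr6:67609745-67610508) was used by 6.50% (4.97 to 8.32) of dual-light and 4.33% (3.69 to 5.06) of single-light kappa chains, with intervals that just overlap. Its intervals no longer overlapped once the cells that hold the chain of T cell barcodes were left out of both groups, at 6.88% (5.27 to 8.804) of dual-light and 4.37% (3.72 to 5.10) of single-light chains. IGKV10-96, IGKV1-117 and IGKV12-46 made up 3.92%, 3.70% and 3.03% of dual-light kappa chains, against 5.68%, 4.61% and 2.64% of single-light ones. Taken by rank, the stronger chain of kappa-kappa cells held IGKV1-135 in 37 of 400 (9.25%, 6.60 to 12.5) and IGKV3-4 in 0 (up to 0.750%), against 4.33% and 1.38% in single-light cells. These are 1 higher gene (1.72% of 58 tested) and 1 lower gene (1.72%). The weaker chain held IGKV1-117 less often than single-light cells (1.25%, 0.407 to 2.89, against 4.61%), and IGKV5-39 (3.75%, 2.11 to 6.11, against 1.41%) and IGKV8-24 (5.75%) more often, which is 1 lower gene (1.72% of 58) and 2 higher genes (3.45%). Without the cells that hold the chain of T cell barcodes, IGKV8-24 was in 4 of 379 weaker chains (1.06%, 0.288 to 2.68), which overlaps the 1.25% (0.909 to 1.67) of single-light cells. These genes differ in depth: in single-light cells the median was 57 UMIs for IGKV1-135, 61 for IGKV3-4 and 68 for IGKV1-117. It was 40.5 for IGKV8-24 and 18.5 for IGKV5-39. Whether depth places a gene in the stronger or the weaker chain was not tested. The comparison by rank and the naming of IGKV5-39 were chosen after the values were seen.

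**Figure D5:**
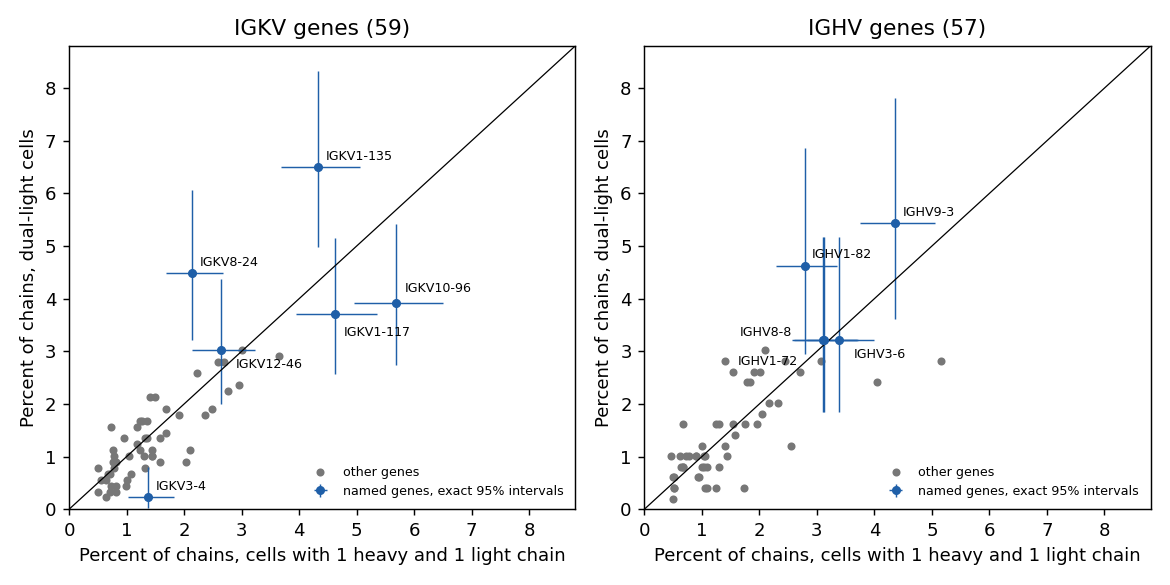
Percent of chains in dual-light cells (y) against single-light cells (x) for 59 IGKV and 57 IGHV genes with at least 20 chains. Blue points are the named genes with exact 95% intervals in both directions, and the line marks equal shares. IGKV8-24 lies above the line at 4.48% against 2.14%, and IGKV3-4 below it at 0.224% against 1.38%.

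The 2 kappa chains of a cell were seldom alike. They shared the V gene in 1 of 400 kappa-kappa cells (0.250%, 0.00633 to 1.38) and the V family in 15 (3.75%, 2.11 to 6.11). In kappa-kappa cells with 2 heavy chains the V family was shared in 5 of 188 (2.66%, 0.869 to 6.10), an interval that overlaps. The product of single-light shares was not computed for V genes or families. In 305 of the 400 cells (76.3%, 71.8 to 80.3) both CDR3s had the same length, and between these the median number of mismatched bases was 13 (12 to 13), with a lowest value of 3. Measured along the chromosome, the V gene of the stronger chain lay a median of 1.99 Mb (1.54 to 2.09) from Igkj1, that of the weaker chain 1.45 Mb (1.28 to 1.68) and that of the kappa chain of kappa-lambda cells 1.28 Mb (0.995 to 1.78), against 1.45 Mb (1.31 to 1.5) in single-light kappa cells. The intervals of the stronger and the weaker chain overlap, whereas that of the stronger chain lies above that of single-light kappa cells. Over both chains of kappa-kappa cells with 2 heavy chains the median was 1.79 Mb (1.5 to 1.99), an interval that overlaps that of the stronger chain.

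Kappa contigs that span the full length but were not called productive record other rearrangements of the locus. Such a further contig, with IGKV1-135 left out, was present in 14 of 400 kappa-kappa cells (3.50%, 1.93 to 5.80), against 293 of 3554 single-light kappa cells (8.24%, 7.36 to 9.20), a difference of -4.74 points (-6.58 to -2.28). It was present in 7 of 92 kappa-lambda cells (7.61%, 3.11 to 15.1), against 58 of 320 single-light lambda cells (18.1%, 14.1 to 22.8), a difference of -10.5 points (-17.0 to -2.04). Kappa-kappa cells were chosen for more productive kappa chains than single-light kappa cells, and kappa-lambda cells for more than single-light lambda cells. How much of either difference follows from that choice was not tested. Among cells with 2 heavy and 2 light chains, 21 of 210 had such a further contig (10%, 6.30 to 14.9). Of 59 such contigs in single-light lambda cells, 32 used IGKJ5 (54.2%, 40.8 to 67.3). That interval overlaps the 46.7% of productive kappa chains in kappa-lambda cells. IGKV1-135 was left out because only 74.0% (69.6 to 78.1) of its full-length contigs were called productive.

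The heavy chains of dual-light cells differed little from those of single-light cells. Of 57 IGHV genes with at least 20 chains, 0 (0% of those tested) had intervals that did not overlap. This rule is stricter than a difference whose interval leaves out 0, as used for the J genes below. By that looser measure, applied after the values were seen, IGHV1-75 (1.42 points, 0.0865 to 3.32) and IGHV1-82 (1.84, 0.0741 to 4.13) lay higher. IGHV1-26 (-2.35, -3.82 to -0.363) and IGHV14-4 (-1.33, -1.91 to -0.214) lay lower. The most used IGHV genes were IGHV9-3 (5.43% in dual-light and 4.36% in single-light cells), IGHV1-82 (4.63% and 2.79%), IGHV1-72 (3.22% and 3.12%), IGHV3-6 (3.22% and 3.38%) and IGHV8-8 (3.22% and 3.10%). IGHV1-26, named after its values were seen, was used by 2.82% (1.55 to 4.68) of dual-light and 5.16% (4.49 to 5.91) of single-light cells. Its intervals did not overlap when the flag was dropped or cells with a further heavy contig were left out. IGHJ1, IGHJ2, IGHJ3 and IGHJ4 made up 15.7%, 31.4%, 23.1% and 29.8% of heavy chains in dual-light cells, against 17.3%, 32.2%, 23.2% and 27.2% in single-light cells, with differences whose intervals include 0. The heavy CDR3 had a median of 14 amino acids in both groups. The heavy CDR3 carried a net charge of at least 1, a trait often examined in self-reactive antibodies, in 25.8% (22.0 to 29.8) of dual-light and 24.0% (22.7 to 25.4) of single-light cells.

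Nearly all dual-light cells were unswitched. Of 469 with a named constant gene, 367 had IGHM (78.3%, 74.2 to 81.9) and 101 had IGHD (21.5%, 17.9 to 25.5), against 77.6% (76.2 to 79.0) and 21.7% (20.4 to 23.1) of 3620 single-light cells. The remaining dual-light cell had IGHA, so 0.213% (0.00540 to 1.18) were switched, against 24 of 3620 single-light cells (0.663%, 0.425 to 0.985). IGHG1, IGHG2B, IGHG2C, IGHG3 and IGHE were each found in 0 of 469 dual-light cells, which allows up to 0.640%. No dual-light cell reached 1000 receptor UMIs (0 of 497, which allows up to 0.604%). Among single-light cells 30 of 3874 did (0.774%, 0.523 to 1.10), which overlaps the exact dual-light interval of 0 to 0.739%. The weaker CDR3 of 72 dual-light cells (14.5%, 11.5 to 17.9) also occurred in one of those very deep cells, against the light chain of 11.8% (10.8 to 12.9) of other single-light cells. Without the cells that hold the chain of T cell barcodes these shares were 9.81% (7.27 to 12.9) of dual-light and 11.1% (10.1 to 12.1) of single-light cells.

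One pair of light chains came with the same heavy chain in more than 1 cell. Both cells shared an IGHV11-2 heavy chain with IGHJ1 and IGHM, at 60 and 63 UMIs, and the following 3 CDR3s.
IGHV11-2 with IGHJ1: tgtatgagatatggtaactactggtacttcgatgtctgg
IGKV14-126 with IGKJ4: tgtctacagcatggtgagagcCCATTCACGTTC
IGKV6-32 with IGKJ5: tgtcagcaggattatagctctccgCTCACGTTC
The IGKV14-126 chain had 103 and 112 UMIs and the IGKV6-32 chain 69 and 82 UMIs in these 2 cells. A further dual-light cell had the same heavy chain and an IGKV14-126 chain of 163 UMIs, but paired them with an IGLV2 chain of 12 UMIs. IGHV11-2 with IGKV14-126 is a receptor known from B-1 cells that bind phosphatidylcholine. It was present in 3 of 497 dual-light cells (0.604%, 0.125 to 1.75) and 9 of 3874 single-light cells (0.232%, 0.106 to 0.441), with intervals that overlap. The other B-1 pair looked at, IGHV12-3 with IGKV4-91, was present in 1 dual-light and 1 single-light cell. These 3 were the only dual-light cells that shared the heavy V, J and CDR3 with another WT B cell (0.604%), against 53 single-light cells (1.37%, 1.03 to 1.79).

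Light CDR3s recur between unrelated cells, so a shared light chain alone marks no clone. The CDR3 of the stronger kappa-kappa chain also occurred in another WT B cell in 93% (90.04 to 95.3), that of the weaker in 90.8% (87.5 to 93.4), and that of single-light kappa cells in 94.7% (93.9 to 95.4). The kappa and lambda CDR3s of kappa-lambda cells recurred in 89.1% (80.9 to 94.7) and 96.7% (90.8 to 99.3). The IGKV6-32 CDR3 above was found in 22 WT B cells and the IGKV14-126 CDR3 in 8. By contrast, the IGKV1-117 chain of cell 1 and the IGKV5-45 chain of cell 3 were found in no other WT B cell.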

How the data were processed

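Receptor contig tables of the WT mouse were analysed, and those of 564Igi only for the dual-light and kappa-lambda shares and for shared barcodes. The deposited tables give read and UMI counts per assembled contig as raw whole numbers, per the file headers, with a cell call, a confidence flag, gene names and the CDR3. Cell Ranger 3.0.2 and mm10 are named in the submitters' processing notes. The sources used here do not state how cell calls and flag were made. Gene expression libraries were not analysed here, and a B cell is one by its receptor calls. Dual-light cells and the lists of genes were chosen with earlier results of these data known.

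Light chains of a cell with the same CDR3 nucleotides were counted once, and the chain with more UMIs was called the stronger. Shares carry exact intervals at the 95% level, and beside a count of 0 stands the share that 3 cells would make. Named were all J, lambda V and heavy constant genes, IGKV and IGHV genes with at least 20 chains whose intervals did not overlap (up to 5 per direction), and the 5 most used. Shown by sequence were the 2 cells per pair type with most UMIs on the weaker chain, and cells that shared all 3 CDR3s. The commonest J end was the longest one shared by at least 75% of single-light chains. Kappa V names matched RefSeq for 94 of 94 genes. The interval and class counts were tested on simulated data.

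Alternatives changed the UMI minimum (1 or 5), the flag, the barcodes called in both tables, near copies (up to 2 mismatches), the weaker chain's minimum (10% of light UMIs), privacy of the weaker chain, further heavy contigs, depth (thinned to 20 UMIs) and very deep cells. Cells with under 20 light chain UMIs dropped out of the thinned setting. Chosen after seeing the data were a weaker chain of at least 20% of the stronger, and the omission of cells with the chain of T cell barcodes, from the dual-light group alone or from both groups. The software was Python 3.11.15 with SciPy 1.17.1, NumPy 2.4.6, pandas 2.3.3 and matplotlib 3.10.9.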

Additional observations from a re-analysis of the deposited data

Results flagged for a closer look

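Contigs outside the counted chains held a signal above that of single-light cells. A further productive heavy CDR3 at 1 UMI or without the high-confidence flag was read in 6.24% (4.28 to 8.74) of dual-light cells, against 0.413% (0.236 to 0.670) of single-light cells. The difference between these cell classes was not tested, since both come from 1 mouse. Leaving those cells out kept 466 dual-light cells, 86 of them kappa-lambda.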

How the results depend on the processing

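Of 130 values for the main results under alternatives, 120 stayed within the interval of the reported value, or within 1.5 times a reported count. The IGKV result was scored by how many genes had intervals apart, not by which. With a UMI minimum of 5 they were IGKV1-135 and IGKV8-24. Without the cells that hold the chain of T cell barcodes they were IGKV1-135 and IGKV3-4. Where the weaker chain was found in no other cell they were IGKV4-53 and IGKV5-39. Counting near copies as 1 chain left 497 dual-light cells, as in the main setting. The dual-light share was 12.2% without the flag and 12.3% with light UMIs thinned to 20. Thinning also left out the 526 cells with under 20 light chain UMIs, of which 2.47% were dual-light, so its share covers deeper cells only. The dual-light share was 1.11% when the weaker chain had to be found in no other cell, which left 49 cells. In those 49 the kappa-lambda share was 24.5%, the IGKJ4 or IGKJ5 difference -3.47 points for kappa-kappa and 37.7 points for kappa-lambda cells, and the IGLV1 difference -18.3 points. The weaker chain of kappa-kappa cells had 31.4% of light UMIs without the flag. IGHV genes with intervals apart numbered 1 without the flag and 1 without further heavy contigs, IGHV1-26 both times (2.62% against 5.21%, and 2.36% against 5.16%). The IGKV8-24 difference reversed to -0.976 points in the 49 cells and to -0.486 points when cells with the chain of T cell barcodes were left out of the dual-light group alone, a one-sided omission. Left out of both groups, it was 0.174 points. The cause of the other changes was not tested. Dual-light and single-light cells come from the same WT libraries of 1 mouse, so no test over mice could be made. The stronger and the weaker chain of a cell are paired, and were set side by side as counts without a test. The number of kappa-lambda cells, 92, sets the width of their intervals, and 1 mouse cannot show how these shares vary between mice.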
